A study of Mus musculus with 10 samples.

Results

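Gja1, Spp1, Msln, Il33, Il1rn, Anxa3, Plaur and Sprr1a are taken here as markers of a fetal-like or wound state of the gut epithelium, though several were also present in normal colon crypts, as given below. They were chosen by name, with earlier results of these data known, and are 8 of the 31053 genes counted. They were followed in every cell class of mouse small-intestinal organoids and in crypt cells of the mouse colon. Single-cell 3' RNA counts came from 10 droplet libraries: ENR- and Hyper-organoids gave 3 each, –VE-organoids gave 2, and the colon gave a normal library and one from mice that drank dextran sulfate sodium (DSS), an agent that injures the colonic lining. The comparison of Hyper- with ENR-organoids asks how the members differ between an injury-like culture and a homeostatic one, and that of Hyper- with –VE-organoids asks what the final pair of compounds adds.

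ENR-organoids were grown with EGF at 50 ng/mL, Noggin at 100 ng/mL and R-spondin 1 at 500 ng/mL. Hyper-organoids received EGF at 50 ng/mL, FGF2 at 20 ng/mL, R-spondin 1 conditioned medium at 10%, the BMP receptor inhibitor LDN193189 at 0.2 µM, GSK-3 inhibitor XV at 0.1 µM, pexmetinib at 1 µM, valproic acid (VPA, a histone deacetylase inhibitor) at 500 µM and the EZH2 inhibitor EPZ6438 at 2 µM. –VE-organoids received the same medium without VPA and EPZ6438, so all agents other than this pair were shared with Hyper-organoids. The organoids came from mice of 6 to 12 weeks and the DSS mice were 8 weeks old. The study worked with C57BL/6 and Lgr5-EGFP-IRES-creERT2 mice, and the strain behind each library was not given in the sources used here. Libraries 1, 2 and 3 of a group carry the codes 2, 6 and C in the labels, which were taken here as culture series. In series C both media were started from primary crypts, while the other Hyper- and –VE-organoids were switched from ENR-organoids. Passages were 2, 7 and 3 for the ENR, 1 and 6 for the –VE and 1, 6 and 3 for the Hyper libraries. The p-values therefore measure the spread between cultures that differ in passage and origin, and series C had no –VE library. The main fit did not pair libraries by series. Each colon group was 1 library, so its differences have no replicate check.

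When gut epithelium is wounded, part of it gives up its adult identity for a while and takes on genes of the fetal gut, programmes that are tied to YAP/TEAD and AP-1 transcription factors. The 8 genes cover several jobs in such tissue. Gja1 encodes connexin 43, a gap junction channel. Spp1 encodes osteopontin, a secreted ligand of integrins and CD44, and Msln encodes mesothelin, a surface protein of mesothelial and fetal cells. Il33 encodes an alarmin that is stored in nuclei, and Il1rn encodes the secreted antagonist of the IL-1 receptor. Anxa3 encodes a calcium-dependent membrane-binding annexin, Plaur the urokinase receptor that holds a matrix-degrading protease on the cell surface, and Sprr1a a small proline-rich protein of the cornified envelope.

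The members are spread over 7 chromosomes of GRCm38, and 2 of them, Spp1 at chr5:104435118-104441050 and Anxa3 at chr5:96793339-96845966, lie on chromosome 5. Both of these overlap another annotated gene on the same strand, Gm42793 and Gm42603, so reads in the shared stretch cannot be told apart. Gja1 lies at chr10:56377330-56402513, Msln at chr17:25748613-25754378, Il33 at chr19:29925114-29960718, Il1rn at chr2:24336853-24351494, Plaur at chr7:24462484-24475968 and Sprr1a at chr3:92483952-92485895. RefSeq promoter windows, from 250 bases before to 50 bases after the start furthest upstream, were held for 6 members, and not for Msln and Anxa3. The AP-1 letters TGANTCA, read on both strands, were found in 4 of the 6 windows, at -19 in Gja1, -141 in Il1rn, -69 in Plaur and at -146 and -116 in Sprr1a (distances to the start in bases), and in 7.92% of the windows of 27025 genes. The TEAD letters GGAATG, on both strands, were found in 1 window, that of Il33 at -131, and in 14.7% of all windows. The windows below are shown because Gja1 and Il33 were higher in Hyper-organoids in all 4 comparisons of stem and transit-amplifying cells while Sprr1a was higher in 1, and they are RefSeq sequences of GRCm38.p6 read 5′ to 3′ on the gene's strand. Capitals mark AP-1 letters in Gja1 and Sprr1a and TEAD letters in Il33. The Gja1 window is chr10:56377050-56377349 on the plus strand, the Il33 window chr19:29924863-29925162 on the plus strand and the Sprr1a window chr3:92485832-92486131 on the minus strand.
Gja1: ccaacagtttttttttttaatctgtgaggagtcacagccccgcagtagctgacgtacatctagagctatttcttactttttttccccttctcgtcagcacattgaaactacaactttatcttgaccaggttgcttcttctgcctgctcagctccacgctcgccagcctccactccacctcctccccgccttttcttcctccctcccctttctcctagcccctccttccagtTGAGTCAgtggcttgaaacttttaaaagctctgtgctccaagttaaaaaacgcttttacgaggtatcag
Il33: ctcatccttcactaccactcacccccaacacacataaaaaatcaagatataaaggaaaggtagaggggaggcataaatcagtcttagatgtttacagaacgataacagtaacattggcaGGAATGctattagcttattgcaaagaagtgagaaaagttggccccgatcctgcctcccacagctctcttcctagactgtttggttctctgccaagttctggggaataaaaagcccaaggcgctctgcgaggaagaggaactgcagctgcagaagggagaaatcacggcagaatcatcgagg
Sprr1a: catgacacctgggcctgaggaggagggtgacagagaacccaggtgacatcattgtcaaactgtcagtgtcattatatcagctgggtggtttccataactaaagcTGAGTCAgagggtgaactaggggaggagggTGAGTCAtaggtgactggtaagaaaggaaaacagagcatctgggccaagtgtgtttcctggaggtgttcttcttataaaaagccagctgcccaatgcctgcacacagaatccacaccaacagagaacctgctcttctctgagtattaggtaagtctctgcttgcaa
A match of letters describes the window and is not a bound site. The Sprr1a window held 0 CpG pairs and the Il1rn window 1, against a median of 7 over all windows, whereas the Gja1 window held 8.

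The organoid libraries held 1983 to 4293 cells kept by the authors and 89124015 to 170019527 unique molecular identifiers (UMIs, 1 per captured transcript molecule), and the colon libraries 1132 and 1933 cells. Any 2 libraries shared at most 42 barcodes, of which at most 5 were kept cells. Levels below are UMIs per 1000000 UMIs (CPM) of the named cells in that library. In the stem class (SC) of the authors' annotation, the summed level of the epithelial markers was 4401 to 5486 CPM. The leukocyte markers summed to 3.33 to 3.97 CPM in ENR, 4.05 to 5.32 CPM in –VE and 4.72 to 6.71 CPM in Hyper SC cells, with 4 to 7 of 10 at 0 in a library. The stroma and vessel markers summed to 0.697 to 0.892 CPM in ENR, 0.560 to 0.904 CPM in –VE and 1.41 to 2.22 CPM in Hyper SC cells, with 5 or 6 of 8 at 0 in ENR, 5 in –VE and 3 in Hyper libraries. Over all kept cells this last sum was 1.25 to 1.68 CPM in Hyper-, 0.673 to 0.919 CPM in ENR- and 0.576 to 0.796 CPM in –VE-organoids, again without overlap between Hyper and the other groups, and the part of these markers in the results was not tested. The markers that define a stem class (Lgr5, Ascl2, Olfm4, Cd44) summed to 3157 to 4560 CPM in SC cells of ENR-organoids, 1958 to 2664 CPM in –VE-organoids and 268 to 923 CPM in Hyper-organoids. Olfm4 was at 630, 22.03 and 36.5 CPM in the Hyper libraries and at 2977 to 4336 CPM in the ENR libraries. Lgr5 was at 122 to 163 CPM in Hyper and 88.3 to 111 CPM in ENR SC cells and Cd44 at 84.4 to 90.6 and 48.6 to 56.4 CPM, so these markers of the class lay above the ENR libraries, while Ascl2 was at 24.0 to 40.4 and 42.6 to 56.6 CPM and lay below them. Dissociation stress genes in SC cells did not overlap between Hyper and the other groups either, at 1157 to 1749 CPM in Hyper- against 806 to 1005 CPM in ENR- and 667 and 972 CPM in –VE-organoids, and their part in the results was not tested. Over all kept cells they summed to 1236 to 1666 CPM in Hyper-, 1296 to 1409 CPM in ENR- and 734 and 979 CPM in –VE-organoids. There the Hyper libraries overlapped those of ENR but not of –VE, and the part of these genes was not tested either. In sums over cells, fewer expressing cells and less RNA per cell cannot be told apart.

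For cells of the whole culture, 7 of the 8 members were higher in Hyper- than in ENR-organoids, and the exception was Sprr1a. A gene was called when edgeR's adjusted p was under 0.05 and the difference at least 2-fold, which held in either direction for 22.9% of the 16037 genes tested, and for 18.2% in the higher direction. Every Hyper library lay above every ENR library for the same 7 members, as was true of 40% of the genes tested. The median log2 fold change of the members was 3.26, against -0.0073 over all genes tested. These sums cover unlike mixes of classes. SC cells made up 9.75% to 14.7% of kept cells in ENR, 28.2% and 24.3% in –VE and 40.0% to 44.1% in Hyper libraries. For enterocyte progenitors the shares were 22.2% to 34.5%, 4.39% and 4.29%, and 0.0852% to 0.107%. For enterocytes they were 9.78% to 13.1%, 6.23% and 5.68%, and 0.249% to 1.65%. The part of this mix in the results was not tested. When the few cells of the revival stem cell class (RSC) were left out, a setting added after seeing the data, 4 members stayed called, namely Gja1, Spp1, Il33 and Anxa3. Without Hyper library 3 the count was also 4. In both settings the number of all genes called counted as unchanged, by the margin described with the alternatives below.

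Gja1 stood apart by the size of its difference. Its level in all kept cells was 0.051, 0.016 and 0.056 CPM in the ENR libraries, 0.115 and 0.082 CPM in the –VE libraries, and 15.0, 24.5 and 23.9 CPM in the Hyper libraries. The Hyper libraries lay far above all 5 others. The log2 fold change was 8.92 ± 0.36 (SE) against ENR-organoids (edgeR adjusted p = 1.44e-06) and 7.62 ± 0.38 against –VE-organoids (edgeR adjusted p = 9.36e-06), and the UMIs behind it were 7719 in Hyper-, 28 in –VE- and 12 in ENR-organoids. Both calls held in every alternative tried. Between –VE- and ENR-organoids the log2 fold change of Gja1 was 1.30 ± 0.59 (edgeR adjusted p = 0.224).

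**Figure D1:**
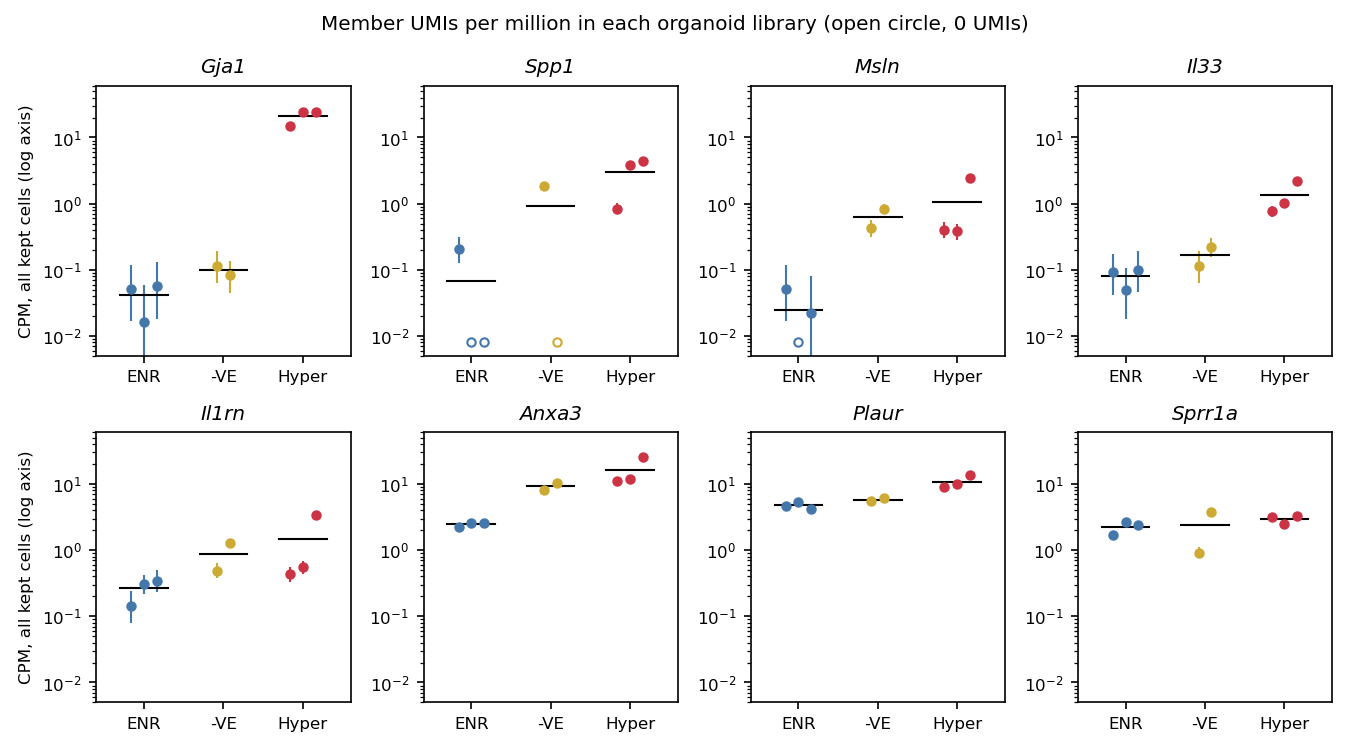
Level of each member in each organoid library over all kept cells, in CPM on a log axis, with exact Poisson 95% intervals (counting error only), the group mean as a black line and open circles for libraries with 0 UMIs. The Hyper libraries of Gja1 sit between 15.0 and 24.5 CPM, above the other groups, whereas those of Sprr1a, between 2.45 and 3.23 CPM, overlap both.

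Osteopontin RNA was uneven between cultures and between cells. Spp1 was at 0.206, 0 and 0 CPM in the ENR libraries, 1.86 and 0 CPM in the –VE libraries and 0.845, 3.82 and 4.42 CPM in the Hyper libraries. All 20 UMIs of ENR library 1 came from 1 cell, and –VE library 1 lay between the Hyper libraries. Spp1 was higher in Hyper- than in ENR-organoids, with a log2 fold change of 5.38 ± 1.75 (edgeR adjusted p = 0.0288). Its value ranged from 4.72 to 11.5 over the alternatives. This call was lost in edgeR without ENR library 2 (adjusted p = 0.090), ENR library 3 (adjusted p = 0.082), Hyper library 2 (adjusted p = 0.0563) or Hyper library 3 (adjusted p = 0.0599), and in DESeq2 (adjusted p = 0.0948).

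Mesothelin RNA followed a small number of cells. Msln was at 0.051, 0 and 0.022 CPM in the ENR libraries, 0.427 and 0.829 CPM in the –VE libraries and 0.404, 0.380 and 2.45 CPM in the Hyper libraries. Every –VE and Hyper library lay above the ENR libraries, and –VE and Hyper libraries overlapped. The log2 fold change was 5.35 ± 1.13 against ENR-organoids in Hyper-organoids (edgeR adjusted p = 0.00415) and 4.73 ± 1.19 in –VE-organoids (edgeR adjusted p = 0.0497). Without RSC cells these values were 0.13 (edgeR adjusted p = 0.92) and 2.04 (edgeR adjusted p = 0.201). The mesothelial markers Wt1, Upk3b, Lrrn4 and Krt5 together held 6.23 to 8.72 CPM in ENR-, 7.48 to 10.5 CPM in –VE- and 4.39 to 10.4 CPM in Hyper-organoids, with up to 2 of the 4 at 0 in a library, and their part in the result was not tested.

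Of the interleukin genes, Il33 separated the media and Il1rn did so less firmly. Il33 was at 0.093, 0.049 and 0.101 CPM in the ENR libraries, 0.115 and 0.224 CPM in the –VE libraries and 0.773, 1.01 and 2.23 CPM in the Hyper libraries, with no overlap between Hyper and the other groups. Its log2 fold change was 3.93 ± 0.54 against ENR-organoids (edgeR adjusted p = 0.000451) and 2.81 ± 0.57 against –VE-organoids (edgeR adjusted p = 0.00459), and both calls held in every alternative tried. Il1rn was at 0.144, 0.309 and 0.348 CPM in the ENR libraries, 0.493 and 1.27 CPM in the –VE libraries and 0.433, 0.549 and 3.37 CPM in the Hyper libraries. Hyper library 3 lay well above the rest, and the –VE libraries fell among the Hyper libraries. The call of Il1rn against ENR-organoids (log2 fold change 2.29 ± 0.86, edgeR adjusted p = 0.0494) held in 7 of 16 alternatives. Its log2 fold change was 0.74 without Hyper library 3 (edgeR adjusted p = 0.251) and 1.30 without RSC cells (edgeR adjusted p = 0.143), and it also lost its call without any 1 of the ENR or –VE libraries (edgeR adjusted p from 0.0576 to 0.14).

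The annexin and the urokinase receptor were present in every culture at levels that allowed firmer comparisons. Anxa3 was at 2.27, 2.54 and 2.57 CPM in the ENR libraries, 8.00 and 10.5 CPM in the –VE libraries and 11.0, 11.7 and 26.0 CPM in the Hyper libraries, so the groups were ordered without overlap. Its log2 fold change was 2.59 ± 0.34 in Hyper- against ENR-organoids (edgeR adjusted p = 0.000339), 1.92 ± 0.36 in –VE- against ENR-organoids (edgeR adjusted p = 0.0201) and 0.68 ± 0.36 in Hyper- against –VE-organoids (edgeR adjusted p = 0.152). Plaur was at 4.69, 5.39 and 4.15 CPM in the ENR libraries, 5.45 and 6.15 CPM in the –VE libraries and 8.89, 10.2 and 13.5 CPM in the Hyper libraries. The Hyper libraries lay above all others. The log2 fold change of Plaur was 1.06 ± 0.17 against ENR-organoids (edgeR adjusted p = 0.000877), and against –VE-organoids 0.77 ± 0.19 (edgeR adjusted p = 0.0109), which is under 2-fold. Without Hyper library 3 the value of Plaur against ENR-organoids was 0.88 and without RSC cells 0.99, both under 2-fold.

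Sprr1a did not differ detectably between the cultures as a whole. It was at 1.67, 2.68 and 2.42 CPM in the ENR libraries, 0.911 and 3.81 CPM in the –VE libraries and 3.18, 2.45 and 3.23 CPM in the Hyper libraries. The 3 groups overlapped, and the log2 fold change of Hyper- against ENR-organoids was 0.26 ± 0.45 (edgeR adjusted p = 0.651). Without RSC cells it was -0.70.

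Between Hyper- and –VE-organoids, 2 of the 8 members, Gja1 and Il33, were called over all kept cells, where 18.6% of the genes tested were called. Leaving out a –VE library moved 2 other members, though the –VE group was then 1 library. Spp1 had a log2 fold change of 1.59 ± 1.54 (edgeR adjusted p = 0.428) that became 11.5 without –VE library 1. The remaining –VE library held 0 UMIs of Spp1, so the 11.5 has no exact size. Sprr1a had a log2 fold change of 0.18 ± 0.50 (edgeR adjusted p = 0.787) that became 1.57 without –VE library 2. Between –VE- and ENR-organoids, 2 members, Msln and Anxa3, were called higher, beside 2.55% of genes in either direction and 1.35% in the higher direction. Both of these calls were lost when any ENR or –VE library was left out, with adjusted p from 0.0968 to 0.236 for Msln and from 0.0564 to 0.14 for Anxa3. With culture series as a block, Il1rn was called too (2.37, edgeR adjusted p = 0.0394). Hyper- and –VE-organoids were each compared with the same ENR libraries.

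**Figure D2:**
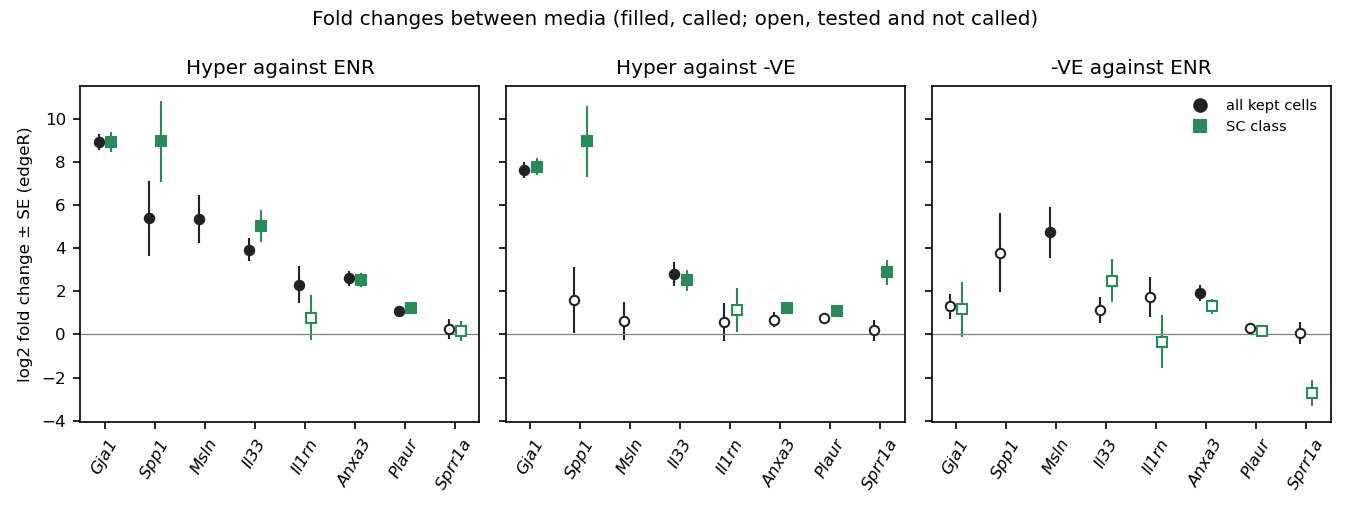
Log2 fold changes (edgeR, ± SE) of the members between the media over all kept cells (circles) and in the SC class (squares), filled where called and open where tested but not called. Gja1 and Il33 are filled in both sets of cells for Hyper against ENR and against –VE, while Sprr1a is near 0 against ENR and at 2.88 against –VE in SC cells.

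Within the SC class, which holds no RSC cells, Gja1, Spp1, Il33, Anxa3 and Plaur were higher in Hyper- than in ENR-organoids. These were 5 of 7 members tested, beside 18% of 13920 genes in either direction and 15.2% in the higher direction. Msln could not be tested, with 0 UMIs in the ENR, 1 in the –VE and 5 in the Hyper SC cells. The SC class held 229 to 322 cells in ENR-, 674 and 1042 in –VE- and 874 to 1481 in Hyper-organoid libraries, so the ENR levels rest on fewer UMIs.

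In SC cells, Gja1 was at 0, 0 and 0.131 CPM in the ENR libraries, 0.097 and 0.053 CPM in the –VE libraries and 14.5, 20.0 and 19.8 CPM in the Hyper libraries. The single UMI of ENR-organoids and the 5 of –VE-organoids stood against 2477 UMIs in Hyper-organoids, a ratio of pooled CPM of 590 to ENR-organoids (exact 95% interval 106 to 23321, counting error only). Il33 was at 0, 0.081 and 0 CPM in the ENR, 0.161 and 0.213 CPM in the –VE and 0.984, 1.00 and 1.57 CPM in the Hyper libraries. Both genes were separated from the other groups without overlap, and Il33 had a log2 fold change of 2.51 ± 0.48 against –VE-organoids (edgeR adjusted p = 0.00264). Spp1 had 0 UMIs in all 5 ENR and –VE libraries and was at 0.562, 2.72 and 3.06 CPM in the Hyper libraries. Against a floor of 3 UMIs over the group, pooled Spp1 was at least 22.2-fold higher in Hyper- than in ENR-organoids and at least 46.3-fold higher than in –VE-organoids. Of the 141 UMIs of Spp1 in Hyper library 2, 90 came from 1 cell, and with every cell thinned to 10000 UMIs the call against ENR-organoids was lost (edgeR adjusted p = 0.0509).

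Anxa3 in SC cells was at 1.86, 3.49 and 2.23 CPM in the ENR libraries, 5.49 and 7.17 CPM in the –VE libraries and 14.5, 11.4 and 21.8 CPM in the Hyper libraries. Its groups did not overlap, and its log2 fold change was 2.53 ± 0.31 against ENR-organoids (edgeR adjusted p = 0.000185) and 1.22 ± 0.29 against –VE-organoids (edgeR adjusted p = 0.00792). The call against –VE-organoids was lost with culture series as a block (0.98, under 2-fold) and without Hyper library 3 (0.91, under 2-fold). It was also lost without –VE library 1, which left 1 –VE library. Plaur was at 5.11, 8.51 and 3.67 CPM in the ENR, 6.55 and 6.42 CPM in the –VE and 13.4, 14.2 and 16.5 CPM in the Hyper libraries. Its Hyper libraries again lay above the others, by a log2 fold change of 1.21 ± 0.23 against ENR-organoids (edgeR adjusted p = 0.002) and 1.07 ± 0.24 against –VE-organoids (edgeR adjusted p = 0.00533). The call against –VE-organoids was lost without –VE library 2 (edgeR adjusted p = 0.0508) or Hyper library 3 (0.97, under 2-fold).

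Sprr1a behaved differently in SC cells. It was at 0.387, 1.62 and 1.31 CPM in the ENR libraries, 0.194 and 0.133 CPM in the –VE libraries and 1.55, 1.29 and 1.07 CPM in the Hyper libraries. Hyper and ENR libraries overlapped, and both –VE libraries were below them. The log2 fold change of Hyper- against –VE-organoids was 2.88 ± 0.57 (edgeR adjusted p = 0.00311), and that of –VE- against ENR-organoids was -2.72 ± 0.62 (edgeR adjusted p = 0.0659). The levels rest on 35 UMIs of ENR-organoids, 11 of –VE-organoids and 183 of Hyper-organoids. They came from 3, 10 and 3 SC cells in the ENR, 6 and 5 in the –VE and 17, 15 and 11 in the Hyper libraries. In Hyper library 2, 34 of the 67 UMIs came from 1 cell, so the levels describe few cells of the class. Il1rn in SC cells was at 0, 1.22 and 0 CPM in the ENR, 0.290 and 0.400 CPM in the –VE and 0.542, 0.308 and 1.65 CPM in the Hyper libraries, the groups overlapped and no comparison passed the test. Against –VE-organoids, 6 of the 7 members tested were higher in Hyper SC cells, beside 16.5% of genes in either direction and 14.7% in the higher direction. Between –VE- and ENR-organoids 0 of 6 members tested were called by edgeR, beside 0.503% of genes, whereas 3 had an unadjusted p under 0.05, as did 17.7% of all genes tested, and DESeq2 called 2 members among 154 genes. With culture series as a block edgeR called 1 of them, Anxa3 (1.47, adjusted p = 0.0346).

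Single SC cells were also scored for carrying more than 1 member. With every cell thinned to 10000 UMIs, UMIs of at least 2 members were found in 4.48%, 4.93% and 8.36% of SC cells of the Hyper libraries, against 0.453% and 0.994% in the –VE libraries and 0.316%, 1.27% and 0.439% in the ENR libraries. The mean over Hyper libraries was 5.92% ± 2.13 (SD, n = 3). It was 0.724% ± 0.382 (SD, n = 2) over –VE libraries, close to the 0.675% ± 0.519 (SD, n = 3) over ENR libraries. The Hyper libraries lay above all others, but a two-sided exact permutation test over libraries gave p = 0.1 for Hyper against ENR and p = 0.2 for Hyper against –VE, the smallest values that the group sizes allow (adjusted 0.3 and 0.3 over 3 comparisons), and p = 1 for –VE against ENR. Enteroendocrine (EE) cells, taken as a class not known for these genes, gave 0% to 1.10%. Thinned TA cells also carried at least 2 members, in 2.64%, 4.86% and 6.86% of cells in the Hyper, 0.98% and 1.18% in the –VE and 0.139% to 0.5995% in the ENR libraries. In goblet cells the shares were 0.649%, 3.14% and 4.03% in the Hyper, 2.47% and 2.24% in the –VE and 0.709% to 1.68% in the ENR libraries, which overlapped. Unthinned shares were 26.6% to 40.6% of SC cells in Hyper-, 5.37% and 5.93% in –VE- and 1.55% to 3.79% in ENR-organoids, at median depths of 31294 to 43892 UMIs per SC cell and 14295 to 24908 per EE cell. From 1 to 36 SC cells and 4 to 11 EE cells per library were too shallow to thin. A Gja1 UMI was found in 37.8%, 43.2% and 46.8% of unthinned Hyper SC cells, and in 8.25%, 6.54% and 2.33% of Hyper EE cells. Without Gja1, at least 2 of the other members were found in 2.19% to 5.30% of thinned Hyper SC cells.

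The RSC class, named by the authors for revival stem cells that appear after injury, held a large part of the RNA of several members. It held 8 and 17 cells in the –VE libraries, 5, 14 and 26 in the Hyper libraries and 0 in the ENR libraries. These cells made up 0.178% to 1.31% of the kept cells, and held 75.0% to 98.2% of a library's Msln UMIs, 22.5% to 70.2% of its Sprr1a UMIs, 21.8% to 56.9% of its Il1rn UMIs and 4.25% to 32.4% of its Anxa3 UMIs. For Plaur they held 1.54% to 11.1%. The share of Spp1 was 83.6% in –VE library 1 and 4.27%, 14.0% and 43.4% in the Hyper libraries, and that of Il33 was 0% to 30.8% in the Hyper libraries. By contrast they held 0.0481% to 1.86% of the Gja1 UMIs in Hyper-organoids, and 4 of the 14 in –VE library 1. The class was drawn by the authors from clusters of the same cells, so what follows on RSC beside SC cells is a description.

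**Figure D3:**
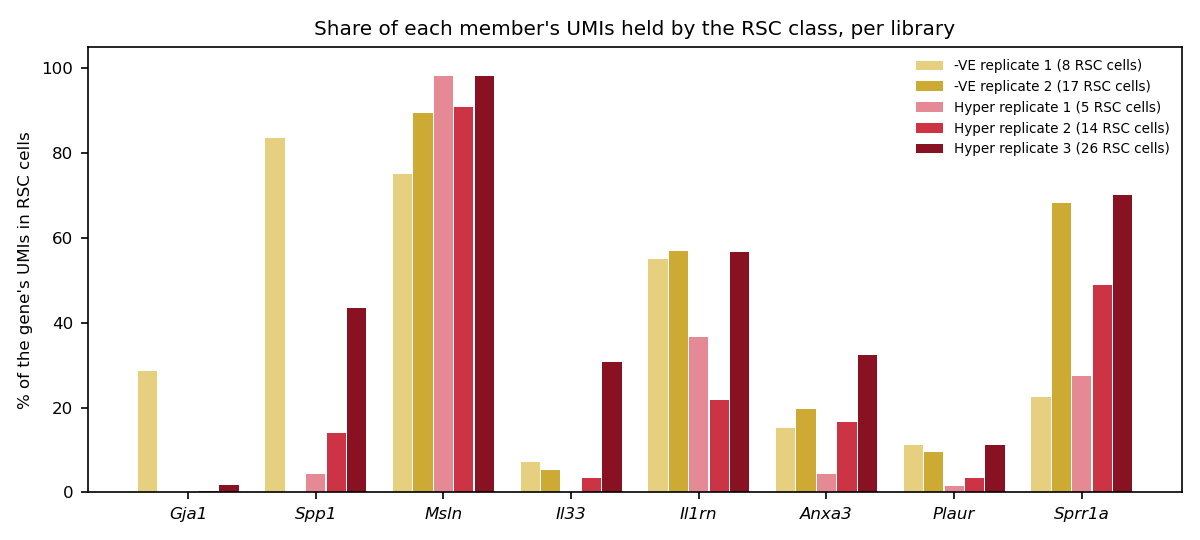
Share of each member's UMIs (%) that RSC cells held in each –VE and Hyper library, with the number of RSC cells in the legend. Msln bars reach 75.0% to 98.2%, whereas those of Gja1 in Hyper libraries stay at or under 1.86%; the Spp1 bar of –VE replicate 2 is missing because that library held 0 UMIs of the gene.

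Annexin and urokinase receptor RNA were denser in RSC than in SC cells of every library. Anxa3 was at 452 and 568 CPM in –VE and 244, 418 and 504 CPM in Hyper RSC cells, 16.8 to 82.3 times the SC level of the same library, and it had a UMI in 69 of the 70 RSC cells. Plaur was at 226 and 162 CPM in –VE and 71.2, 75.2 and 89.4 CPM in Hyper RSC cells, 5.31 to 34.5 times the SC level. Il1rn was at 101 and 201 CPM in –VE and 82.4, 25.6 and 114 CPM in Hyper RSC cells, 68.9 to 503 times the SC level. The ratios of Anxa3, Plaur and Il1rn were all lower in the Hyper than in the –VE libraries.

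Msln and Spp1 were unevenly spread over the RSC cells. Msln was at 119 and 206 CPM in –VE and 206, 73.7 and 144 CPM in Hyper RSC cells, but came from 5 and 6 cells in –VE and from 1, 5 and 9 cells in Hyper libraries. Sprr1a was at 76.3 and 722 CPM in –VE and 453, 256 and 136 CPM in Hyper RSC cells, from 2 of 8 and 14 of 17 cells in –VE and 1 of 5, 7 of 14 and 15 of 26 cells in Hyper libraries. In Hyper library 1 the 55 Msln UMIs came from 1 RSC cell, as did the 121 Sprr1a UMIs. Spp1 was at 577 and 0 CPM in –VE and 18.7, 114 and 115 CPM in Hyper RSC cells, from 4 cells at most in a library. Gja1 was at 12.2 and 0 CPM in –VE and 3.75, 21.1 and 26.5 CPM in Hyper RSC cells, the latter 0.259 to 1.34 times the SC level with every interval covering 1, and came from 3 and 0 cells in –VE and 1, 7 and 19 cells in Hyper libraries. Between Hyper- and –VE-organoids, 0 of the 7 members tested in RSC cells were called by edgeR, beside 0.49% of 7148 genes. Plaur had an unadjusted p under 0.05 (log2 fold change -1.29 ± 0.26, edgeR adjusted p = 0.0685), and DESeq2 called this 1 member among 95 genes. Leukocyte markers in RSC cells summed to 21.2 to 30.5 CPM in –VE- and 3.01 to 7.49 CPM in Hyper-organoids, with 8 or 9 of 10 markers at 0, and their part was not tested.

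The remaining classes split the members further. In transit-amplifying (TA) cells, Gja1 (log2 fold change 8.57 ± 0.39), Spp1 (3.97 ± 1.34), Il33 (3.99 ± 0.61) and Anxa3 (1.86 ± 0.21) were higher in Hyper- than in ENR-organoids, 4 of 7 members tested beside 20.9% of 14553 genes. The edgeR adjusted p of these ranged from 1.2e-06 to 0.0328, and the call of Spp1 was lost in DESeq2 (adjusted p = 0.182) and without ENR library 2 or 3 or Hyper library 2 or 3 (adjusted p from 0.0563 to 0.1). Dissociation stress genes in TA cells summed to 1245 to 1620 CPM in Hyper-, 1039 to 1158 CPM in ENR- and 700 and 887 CPM in –VE-organoids, and the stroma and vessel markers to 0.894 to 1.496, 0.362 to 0.819 and 0.402 to 0.605 CPM, both without overlap between Hyper and the other groups, and their part was not tested. Against –VE-organoids Gja1 (8.11 ± 0.41) and Il33 (2.72 ± 0.57) were higher in TA cells, beside 17.8% of genes. Anxa3 was higher in –VE- than in ENR-organoids in TA cells (1.49 ± 0.23, edgeR adjusted p = 0.0163), beside 1.03% of genes, and lost this call without –VE library 2 or any ENR library (adjusted p from 0.0542 to 0.114).

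In goblet cells (GC), the mucus-secreting class, Gja1 was higher and Sprr1a lower in Hyper-organoids. Gja1 was at 0.284, 0 and 0 CPM in the ENR, 0.294 and 0.240 CPM in the –VE and 9.50, 19.2 and 16.3 CPM in the Hyper libraries, above all others. Sprr1a was at 5.40, 10.4 and 6.41 CPM in the ENR, 5.00 and 5.83 CPM in the –VE and 0.328, 0.157 and 2.54 CPM in the Hyper libraries, below all others. In Hyper goblet cells Sprr1a was lower by a log2 fold change of -3.15 ± 0.59 against ENR-organoids (edgeR adjusted p = 0.00198) and -2.63 ± 0.62 against –VE-organoids (edgeR adjusted p = 0.0108). The value against ENR-organoids ranged from -4.97 to -2.58 over the alternatives. The value against –VE-organoids was not called without –VE library 2, which left 1 –VE library. Of the 4 members tested in goblet cells, Gja1 and Sprr1a were called in both comparisons, beside 13.3% and 9.87% of 11714 genes. Sprr1a came from 3 to 6 goblet cells in each ENR library, 4 and 9 in the –VE and 1, 1 and 6 in the Hyper libraries. The top cell held 17 of 19, 28 of 53 and 17 of 22 UMIs in the ENR libraries. In the –VE libraries it held 17 of 34 and 39 of 73. The share of goblet cells with a Sprr1a UMI overlapped between the groups. It was 2.80%, 4.08% and 2.40% in the ENR, 2.31% and 2.37% in the –VE and 0.633%, 0.488% and 4.58% in the Hyper libraries.

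In ENR-organoids Sprr1a was densest in enterocytes (EC), the absorptive cells, at 14.9, 16.9 and 13.1 CPM, and these held 459 of the 707 Sprr1a UMIs. Few enterocytes carried them, namely 12 of 214, 17 of 340 and 10 of 292 cells. The top cell of each ENR library held 47 of 113, 134 of 226 and 84 of 120 UMIs. Hyper-organoids kept 7, 58 and 21 enterocytes, in which Sprr1a was at 2.35, 20.1 and 15.4 CPM, so this class was too small for a fit. Anxa3 in the same enterocytes was at 1.85, 2.47 and 4.16 CPM in the ENR libraries, 11.5 and 16.0 CPM in the –VE libraries and 11.8, 23.8 and 67.8 CPM in the Hyper libraries. No member passed the low-count filter in enteroendocrine cells.

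The size of the difference between media depended on the class for some members, as tested in a fit that held SC and another class of the same libraries. Every member but Msln was tested. For Hyper- against ENR-organoids, the log2 fold change of Anxa3 was higher in SC than in TA cells by 0.66 ± 0.21 (SE, edgeR adjusted p = 0.0428), where 15.1% of genes passed the same test. Anxa3 was the only member called here, which is not above that general share. This call was lost with DESeq2's size factors (edgeR adjusted p = 0.06) and without ENR library 1 or 3, Hyper library 1 or –VE library 2 (edgeR adjusted p from 0.0661 to 0.375). For Hyper- against –VE-organoids, the log2 fold change was higher in SC than in TA cells by 0.84 for Anxa3 (edgeR adjusted p = 0.000167), where 11.7% of genes passed. Spp1 (6.28, edgeR adjusted p = 0.0213) and Plaur (0.38, edgeR adjusted p = 0.0416) passed too, but neither held in every alternative, as given below. Goblet cells were compared with SC cells in the same way. For Hyper- against ENR-organoids, the log2 fold change was higher in SC than in goblet cells by 2.01 for Anxa3 (edgeR adjusted p = 0.000228), 1.83 for Plaur (edgeR adjusted p = 0.000717) and 3.4 for Sprr1a (edgeR adjusted p = 0.00365), beside 14.1% of genes. For Hyper- against –VE-organoids it was higher by 1.47 for Anxa3 (edgeR adjusted p = 0.000789) and 5.58 for Sprr1a (edgeR adjusted p = 0.000458), beside 3.86% of genes. Both Sprr1a values rest on the few goblet cells given above.

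**Figure D4:**
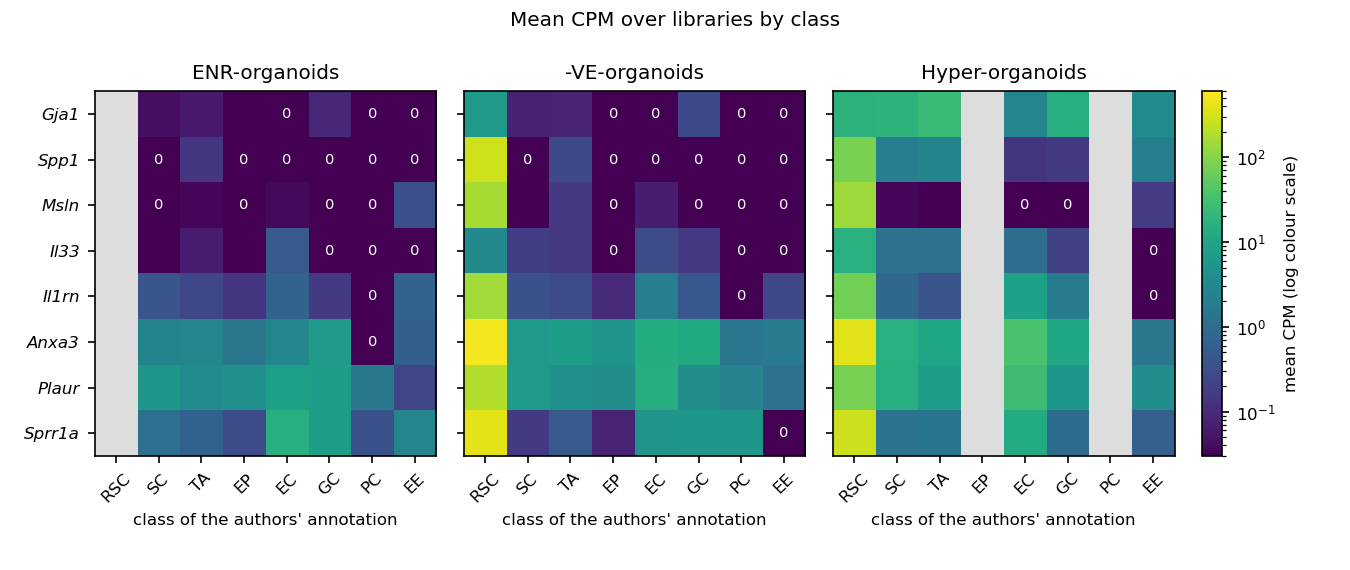
Mean CPM over the libraries of each group (log colour scale) for the members in the authors' classes, with grey where a group held under 20 cells of the class and a white 0 where no UMI was found. Anxa3, Il1rn, Msln and Sprr1a are brightest in RSC, whereas Gja1 in Hyper-organoids is spread over RSC, SC, TA and goblet cells.

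The 8 members did not follow a single pattern over the libraries. Over the 8 organoid libraries, which share media groups, Pearson's r of log2 CPM was 0.957 for Gja1 and Il33, 0.949 for Msln and Anxa3 and 0.947 for Il33 and Plaur, but -0.380 for Spp1 and Sprr1a. Among genes with a mean of at least 5 CPM, those most like each member were Stox2 (0.998) and Tgfb1 (0.997) for Gja1, Poglut1 (0.989) and Bmpr2 (0.988) for Il33, Ly6a (0.986) and Krt7 (0.986) for Anxa3, and Spry1 (0.977) and Rhob (0.975) for Plaur. For Msln they were Amd1 (0.967) and Oxct1 (0.964), for Spp1 Zfp395 (0.949) and Wfdc2 (0.938), for Il1rn Gipc1 (0.940) and Plekha3 (0.934), and for Sprr1a Usp45 (0.833) and Emc8 (0.829).

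Genes of the same programmes and families moved in part with the members. Of 28 other fetal-like and wound genes, 27 were tested over all kept cells, and 12 were higher and 0 lower in Hyper- than in ENR-organoids (18.2% of all genes tested were higher), with a median log2 fold change of 0.98 over those tested. Ly6d, a surface protein gene of the Ly6 family, had 0, 0 and 1 UMIs in the ENR, 132 and 52 in the –VE and 22, 36 and 435 in the Hyper libraries, so most of its Hyper UMIs came from library 3 and both –VE libraries lay above the other Hyper libraries. In SC cells 14 of 25 tested were higher, beside 15.2% of all genes, among them Tubb6, a tubulin gene, with a log2 fold change of 6.99, and Ly6a (Sca-1), with 6.68. Against –VE-organoids 9 were higher over all kept cells and 11 in SC cells, beside 16.1% and 14.7% of all genes, with Basp1 at 5.91 and 7.29 and none lower. In –VE- against ENR-organoids 4 were higher over all kept cells, led by Anxa1 (3.83) and Ly6a (3.76), beside 1.35% of all genes, and 1, Anxa5 (1.43), in SC cells, beside 0.503% called in either direction. The authors had screened compounds for the Hyper medium by a rise of Clu, Ly6a, Anxa1 and Reg3b. The rise of Ly6a and Anxa1 was therefore selected for in advance, and the list was chosen with earlier results of these data known.

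Of 22 receptors, ligands and enzymes in the members' pathways, 13 were tested over all kept cells, and 8 were higher and 1 lower in Hyper- than in ENR-organoids, beside 18.2% of all genes higher and 22.9% called in either direction. Serpine2, a protease inhibitor that acts on urokinase, was at 0.660 ± 0.148 CPM (SD, n = 3) in ENR- and 9.12 ± 2.57 CPM (SD, n = 3) in Hyper-organoids (log2 fold change 3.67, edgeR adjusted p = 2.4e-05). Plau, the urokinase that binds the product of Plaur, was called as higher (2.98, edgeR adjusted p = 0.012) but had 34 UMIs in Hyper- and 3 in ENR-organoids. Il18, an interleukin of the IL-1 family, was lower over all kept cells (-1.80, edgeR adjusted p = 0.00848), whereas in SC cells its log2 fold change was 1.41 (edgeR adjusted p = 0.0717), at 0.852, 0.568 and 1.83 CPM in the ENR and 1.73, 1.98 and 5.10 CPM in the Hyper libraries. In SC cells 5 of 11 tested were higher against ENR- and 7, Il18 among them (1.72, edgeR adjusted p = 0.042), against –VE-organoids, beside 15.2% and 14.7% of all genes. Itga9, an integrin chain that binds osteopontin, had 91 UMIs in Hyper SC cells and 0 in ENR and –VE SC cells. Plat, tissue plasminogen activator, was the 1 gene of the list called in –VE- against ENR-organoids over all kept cells (1.38, edgeR adjusted p = 0.0218), beside 2.55% of all genes in either direction.

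Gja1 was not the only connexin gene that differed. Of 22 other connexins and annexins, 21 had a row and 18 were tested over all kept cells, and 8 were higher and 1 lower in Hyper- than in ENR-organoids, again beside 18.2% of all genes higher. Gjc1, connexin 45, had 130, 1071 and 248 UMIs in the Hyper libraries (0.939, 7.53 and 2.75 CPM) and 0, 1 and 0 in the ENR libraries, so most came from Hyper library 2. Gja3, connexin 46, had 49, 17 and 33 UMIs in the Hyper libraries and 0 in the ENR libraries. Gjb1, connexin 32, was the one that fell, from 34.6 ± 2.22 CPM (SD, n = 3) in ENR- to 7.33 ± 2.12 CPM (SD, n = 3) in Hyper-organoids (log2 fold change -2.37, edgeR adjusted p = 2.94e-05), and it was also lower in SC cells (-1.81, edgeR adjusted p = 0.000131). Against –VE-organoids 6 were higher, beside 16.1% of all genes, and 1, again Gjb1 (-1.79), was lower. In –VE- against ENR-organoids Anxa1 (3.83) and Anxa5 (1.67) were higher, beside 1.35% of all genes, and none was lower.

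In the colon, Gja1 was higher in the DSS library than in the normal one. A member was counted as past 2-fold where the ratio of the 2 libraries exceeded 2 in either direction and the exact Poisson intervals did not overlap, a rule that 3 of the 8 members met, beside 6.25% of the 16328 genes with a UMI in both libraries. Gja1 was at 1.91 CPM (95% interval 1.35 to 2.62) in normal and 5.15 CPM (4.40 to 6.00) in DSS crypts, a ratio of 2.70 (1.89 to 3.95). With 38 and 167 UMIs it came from 34 of 1132 and 124 of 1933 cells, and over 6 choices of cells, from all barcodes to cells with an Epcam but no Ptprc UMI, the ratio ranged from 2.57 to 3.09. The stroma and vessel markers summed to 25.1 CPM in normal and 62.8 CPM in DSS crypts, and their part in the result was not tested. All intervals here cover counting error between these 2 libraries and not the spread between cells or mice.

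Leukocytes were unevenly present in the colon libraries, with leukocyte markers at 117 CPM in normal and 2389 CPM in DSS crypts, although a Ptprc UMI was found in 17.7% and 19.1% of kept cells. Of 25 clusters in the authors' annotation, 6 held a Ptprc UMI in over 50% of cells. Spp1 was at 0.151 CPM in normal crypts from 3 UMIs and 1.36 CPM in DSS crypts from 44, a ratio of 9.01 (2.89 to 45.4), and 41 of the 44 lay in those clusters. Of the 44, 23 came from 1 cell. Among cells with at least 1500 genes the ratio of Spp1 was 1.02 (0.199 to 6.60). Msln was lower, at 3.11 CPM in normal and 1.11 CPM in DSS crypts (ratio 0.357, 0.230 to 0.547), with 62 UMIs from 3 cells and 36 from 4, of which 93.5% and 66.7% lay in the same clusters. A single cell gave 38 of the 62 and another 15 of the 36. Intervals that take UMIs as independent are therefore too narrow for Msln and Spp1. Outside the 6 clusters Spp1 had 0 UMIs in normal crypts, and the Msln ratio was 1.88 (0.570 to 8.00). The number of members past 2-fold was then 1, Gja1. In cells without any Ptprc UMI, by contrast, all 62 and 36 Msln UMIs remained, with a ratio of 0.362 (0.233 to 0.555), and 2 members were past 2-fold. That number was also 2 in cells with at least 1500 genes, and 4 over all barcodes, where Plaur had a ratio of 2.05 (1.91 to 2.20). The share of all genes past 2-fold was taken for all kept cells only, so these other numbers have no share beside them.

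The other 5 members were closer between the colon libraries. Plaur was at 41.9 CPM in normal and 74.1 CPM in DSS crypts (ratio 1.77, 1.63 to 1.91), with 29.6% of its DSS UMIs in the 6 clusters, and the ratio was 1.31 without them. Il1rn was at 40.7 and 77.8 CPM (ratio 1.91, 1.77 to 2.07), with 7.02% of its DSS UMIs in those clusters and a ratio of 1.81 without them. Anxa3 was at 138 and 153 CPM (ratio 1.11, 1.06 to 1.16), and Sprr1a at 138 and 182 CPM (ratio 1.31, 1.26 to 1.38). For Il33, with 13 and 31 UMIs, the levels were 0.653 and 0.957 CPM and the interval of the ratio, 0.745 to 3.05, covered 1.

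**Figure D5:**
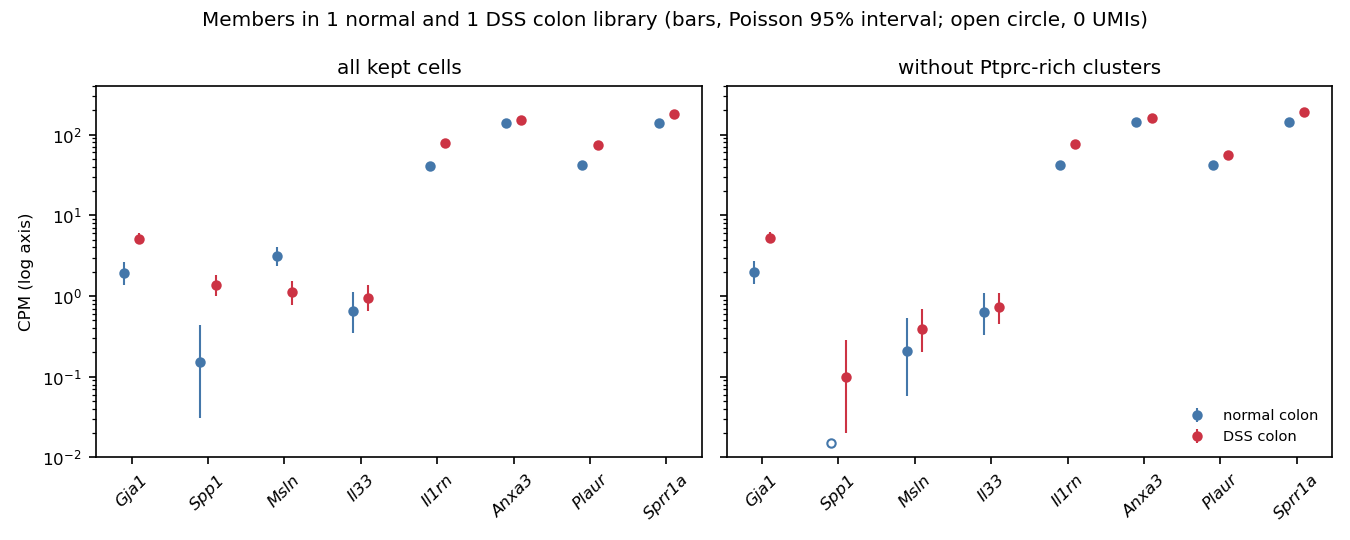
Level of each member in the normal and the DSS colon library (CPM, log axis, exact Poisson 95% intervals), over all kept cells and without the clusters in which over 50% of cells held a Ptprc UMI. Gja1 is higher in the DSS library in both panels, while the Msln points change order and Spp1 in the normal library drops to 0 UMIs (open circle) in the right panel.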

How the data were processed

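Single-cell RNA was captured on droplets and sequenced from the 3' end. The authors aligned the reads with Cell Ranger 3.0.0 to mm10 (the matrix headers name 3.1.0), filtered and annotated cells with Seurat 3.1.4, and deposited raw UMI counts per gene and barcode with a table of kept cells and classes, which was used as given. Kept cells included some under the 1500 genes that the methods state. Doublets were not removed. An alternative left out the 5% of cells with the most UMIs.

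UMIs were summed per gene, library and class and fitted with edgeR 4.0.16 (R 4.3.3), using the quasi-likelihood test, TMM scaling, filterByExpr and all 8 organoid libraries in 1 fit per class, for classes with at least 20 cells in every organoid library and for RSC. A call needed a Benjamini-Hochberg adjusted p under 0.05 over all genes tested and a difference of at least 2-fold. The SE of a log2 fold change was derived from the test, as its absolute value over the square root of the quasi-likelihood F. With few UMIs in a group this SE can be narrower than counting error alone. Alternatives were DESeq2 1.42.0, its size factors, no low-count filter, cells with at least 1500 genes, thinned cells, other sets of cells, and leaving out each library. The same-series libraries of ENR- and Hyper-organoids, numbered in the labels, deviated together (correlations of 0.192, 0.170 and 0.436). ENR and Hyper libraries of different series gave -0.292 to 0.129, so the lower same-series values lay only a little above the highest of these. The series numbers were taken to pair the libraries, and series as a block was fitted too. Shares, exact permutation tests and exact 95% Poisson intervals were computed in Python 3.11.15 with scipy 1.17.1. Intervals and floors of 3 counts cover counting error only. The fits were tested on simulated data. Colon values have no test.

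The members and gene lists were chosen with earlier results of these data known. Named genes were the members and, per list and comparison, at most the 2 largest rises and falls among called genes, of which 1 is not reported here. Likeness used genes with a mean of at least 5 CPM.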

Additional observations from a re-analysis of the deposited data

Results flagged for a closer look

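The difference between media depended on the cell class for some members and for many other genes, by the edgeR test of that difference itself. Every member but Msln was tested. For Hyper- against ENR-organoids, Anxa3 alone passed against TA cells, which is not above the general share of 15.1% of all genes. Its log2 fold change was higher in SC cells by 0.66, a call lost in several alternatives as given above. Against goblet cells the log2 fold change was higher in SC cells by 2.01 for Anxa3, 1.83 for Plaur and 3.4 for Sprr1a, beside 14.1% of all genes. For Hyper- against –VE-organoids it was higher in SC than in TA cells by 0.84 for Anxa3, 0.38 for Plaur and 6.28 for Spp1, beside 11.7% of all genes. Against goblet cells it was higher in SC cells by 1.47 for Anxa3 and 5.58 for Sprr1a, beside 3.86% of all genes. The Sprr1a values rest on few goblet cells, as given above. The value of Spp1 rests on –VE library 1, without which it was -0.29. That of Plaur against TA cells (edgeR adjusted p = 0.0416) was lost with DESeq2's size factors (edgeR adjusted p = 0.0584) and in 6 of the 8 fits without a library.

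Barcodes that the authors did not keep also held 3 members, Gja1, Spp1 and Il1rn, at a higher level in every Hyper library than in every ENR library, in data that no comparison used. The same held for 46.4% of the 14965 genes with at least 10 UMIs there, so 3 of 8 is not above the general share. Gja1 was at 6.70, 9.51 and 10.3 CPM in these barcodes of the Hyper libraries and at 0, 0 and 0.046 CPM in those of the ENR libraries. Spp1 was at 0.706, 1.65 and 1.19 CPM in the Hyper libraries and had 0 UMIs in the ENR libraries, while the –VE libraries gave 1.96 and 0 CPM. Il1rn was at 3.29, 1.19 and 3.03 CPM in the Hyper libraries and 0.768, 0.766 and 0.509 CPM in the ENR libraries, the lowest Hyper value lying below both –VE libraries (1.5 and 3.75 CPM). Sprr1a lay the other way, at 6.82, 2.01 and 8.68 CPM in the Hyper and 13.5, 11.3 and 21.1 CPM in the ENR libraries. Hyper and ENR libraries overlapped for Msln (0.274 to 5.73 and 0 to 1.11 CPM), Anxa3 (6.95 to 19.1 and 4.14 to 7.08 CPM), Plaur (8.05 to 13.6 and 8.56 to 10.9 CPM) and Il33 (0.118 to 0.823 and 0.0925 to 0.451 CPM). Whether these barcodes hold damaged cells or free RNA was not tested.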

How the results depend on the processing

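Of 1350 values under alternatives, 1183 counted as unchanged and 31 reversed. A log2 fold change between media was unchanged if it kept its direction and its side of the threshold. Numbers of members or genes called were unchanged within a set margin of the main number. Differences in shares of cells were unchanged within the larger SD of the groups. Genes that an alternative did not test were not counted. For TA and goblet cells only the members called were counted, not all genes. The calls of Gja1, Il33 and Anxa3 in Hyper- against ENR-organoids held over all kept cells, SC and TA cells under every alternative fitted, except that Il33 in SC cells was too low to be tested when thinned. The causes of the changes below were not tested. Without RSC cells, 4 members in place of 7 were called over all kept cells for Hyper against ENR, and 1 in place of 2 for –VE against ENR. Leaving out 1 library gave 4 to 7 members for Hyper against ENR, the 4 being without Hyper replicate 3, and 0 to 2 members and 96 to 519 genes (409 with all libraries) for –VE against ENR. In SC cells, thinning left 3 of 5 members for Hyper against ENR, since Spp1 lost its call and Il33 was not tested. For –VE against ENR in SC cells, where 0 members and 70 genes were called, DESeq2 called 2 and 154, the fit of every gene with a UMI 2 and 183, and leaving out 1 library 0 to 1 and 8 to 149. In RSC cells, where 0 members and 35 genes were called, DESeq2 called 1 and 95, the fit of every gene with a UMI 4 and 471, thinned cells gave 10 genes and leaving out 1 library 0 to 36 genes. In TA cells the fit of every gene with a UMI called 4 members in place of 2 for Hyper against –VE, and leaving out 1 library gave 0 to 1 for –VE against ENR. In goblet cells leaving out 1 library gave 1 to 2 members for Hyper against –VE.

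With culture series as a replicate block, 1 member and 140 genes were called for –VE against ENR in SC cells, and 0 genes in RSC cells. Under the block the log2 fold change of Msln was -0.67 and of Il1rn -0.53 for Hyper against –VE over all kept cells, that of Sprr1a was -0.0048 for –VE against ENR over all kept cells and 0.34 for Hyper against –VE in RSC cells. Il1rn was called for –VE against ENR over all kept cells under the block (2.37, edgeR adjusted p = 0.0394), and the calls of Anxa3 in SC cells changed as given above. The block changed no other member's call.

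The share of SC cells with at least 2 members was higher in Hyper- than in ENR-organoids by 5.25 points. This was 1.32 at 5000 UMIs, 14.0 at 20000 UMIs, 29.8 unthinned, 28.8 for at least 1 member and 2.69 without Gja1. Against –VE-organoids the 5.20 points became 1.46, 13.0, 26.5, 24.0 and 2.64. For –VE against ENR the 0.0486 points became -0.14 at 5000 UMIs, 0.963 at 20000 UMIs, 3.29 unthinned and 4.72 for at least 1 member, and ranged from -0.22 to 0.346 without 1 library (-0.131 without ENR replicate 1, -0.0695 without ENR replicate 3). In the colon, 1 member in place of 3 was past 2-fold both without the Ptprc-rich clusters and in cells with Epcam and without Ptprc, 2 in cells without Ptprc and in cells with at least 1500 genes, 4 over all barcodes, and the log2 ratio of Msln was 0.91 without those clusters.

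Single log2 fold changes also reversed. Sprr1a for Hyper against ENR over all kept cells became -0.21 without the 5% of cells with the most UMIs and -0.70 without RSC cells, and in SC cells -0.41 when thinned and -0.28 to 0.64 without 1 library. For Hyper against –VE over all kept cells, Msln became -0.75 without the 5% of cells with the most UMIs, -1.91 without RSC cells and -0.82 to 1.19 without 1 library, Il1rn ranged from -0.99 to 1.42 without 1 library, and Sprr1a became -0.37 without the 5% of cells with the most UMIs and -0.49 to 1.57 without 1 library. For –VE against ENR over all kept cells, Spp1 ranged from -6.07 to 9.90 and Sprr1a from -1.31 to 0.75 without 1 library, and Sprr1a became -1.22 without RSC cells. In SC cells without 1 library, Il1rn ranged from -0.18 to 7.70 for Hyper against ENR and from -0.998 to 6.59 for –VE against ENR, and Plaur from -0.053 to 0.56 for –VE against ENR. In RSC cells without 1 library, Spp1 ranged from -2.68 to 9.09, Msln from -0.64 to 0.21 and Sprr1a from -1.46 to 1.84. The difference of Spp1 between SC and TA cells ranged from -0.29 to 7.31. Depth limits the members with few UMIs in ENR-organoids, such as Gja1 (12), Spp1 (20) and Msln (7).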
